A study of Mus musculus with 6 samples.

Results

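The unfolded protein response and the integrated stress response were examined through 33 genes, among them endoplasmic reticulum (ER) chaperones, disulfide isomerases, stress sensors and the targets of the transcription factor ATF4. Members were taken by gene symbol from the array's annotation, and each was measured by the brightest of the probe sets whose only named gene it was. All 33 had such a probe set and passed the filter on dim signals, so the members are 33 of the 12952 genes tested. RNA was isolated from type II cells, the surfactant-producing epithelium of lung alveoli, of 2-month-old mice. Each array held 1 pool of RNA, with 3 Insig1 ∆/∆ /Insig2 -/- pools (called deleted pools below) and 3 Insig1 flox/flox /Insig2 -/- pools (control pools). Deleted mice carried SpC-rTTA, Otet-CRE and floxed Insig1, so that Cre depended on the surfactant protein C promoter and on doxycycline, which both groups received between embryonic days E6.5 and E12.5. Control mice lacked SpC-rTTA or Otet-CRE, and the sources used here do not say which of them each pool lacked. Both groups lacked Insig2. No group had the complete Cre system with Insig1 intact, so an effect of that system cannot be told apart from loss of Insig1. Nor do they say how many mice made up a pool.

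As background, secretory cells such as type II cells fold surfactant proteins in the ER, and misfolded protein there is sensed by IRE1 (gene Ern1), PERK (Eif2ak3) and ATF6. IRE1 splices the Xbp1 transcript and ATF6 is cut in the Golgi to free a transcription factor, and both then switch on chaperones, isomerases and degradation factors, here called the chaperone arm. PERK, like other kinases of the integrated stress response, phosphorylates the translation factor eIF2, which favours translation of ATF4 and its targets for amino acid supply, CHOP (Ddit3) and feedback, here called the ATF4 arm. INSIG1 is itself an ER membrane protein that holds the SCAP-SREBP complex there, and ATF6 and SREBP are processed by the same Golgi proteases. Splicing of Xbp1, cleavage of ATF6 and phosphorylation of eIF2 are not measured by these arrays.

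Known promoter elements of each arm are shown here because the comparison below sets one arm against the other. RefSeq promoters (build GRCm38.p6, 250 bases before to 50 after the start) were found for 30 of the 33 members, 16 of them in the chaperone arm, 10 in the ATF4 arm and 4 among the regulators. Hyou1, Manf and Atf6 were not matched. The ER stress element (CCAAT, 9 bases of any kind, then CCACG), on either strand, was in 8 of 16 chaperone arm promoters, against 39 of all 32851 promoters in the table (0.119%). No promoter of the ATF4 arm or of the regulators held it. The matches are listed on the element's own strand, with the fixed letters in capitals and with positions counted from the transcription start (the last base before the start is -1).
Hspa5 (-65 to -47): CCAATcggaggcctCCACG
Hsp90b1 (-212 to -194): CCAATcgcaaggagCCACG
Hsp90b1 (-107 to -89): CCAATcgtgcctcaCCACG
Calr (-162 to -144): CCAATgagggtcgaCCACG
Canx (-145 to -127): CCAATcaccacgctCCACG
Dnajc3 (-105 to -87): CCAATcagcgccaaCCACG
Pdia6 (-98 to -80): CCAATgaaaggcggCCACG
Ero1b (-201 to -183): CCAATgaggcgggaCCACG
Creld2 (-126 to -108): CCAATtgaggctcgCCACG

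A second form of the element (ATTGG, any base, then CCACG) was in the promoters of Dnajb11 and Herpud1, against 12 of all promoters (0.0365%). The XBP1 core TGACGTG was in that of Hspa5 alone among the members, against 661 of all (2.01%). The ATF4 composite TGATGNAA was in promoters of 4 of 10 ATF4 arm genes (Aars, Asns, Chac1 and Trib3) and in that of Herpud1, against 1304 of all promoters (3.97%). The 30 members had 31 promoters, since Psat1 had a further promoter. All motifs were searched on both strands, and 0 pairs of matches overlapped in these promoters. A match describes the letters in this window and not a bound site. The whole promoters are shown for Hspa5, which held both the ER stress element and the XBP1 core (chr2:34771840-34772139, plus strand), for Ero1b (chr13:12565633-12565932, plus strand) and Dnajb11 (chr16:22857595-22857894, plus strand) as the chaperone arm genes at an unadjusted p under 0.05 that had a promoter in the table, for Chac1 (chr2:119350992-119351291, plus strand) and Asns (chr6:7693160-7693459, minus strand) as ATF4 targets, and for Herpud1, whose promoter held an element of each arm (chr8:94386179-94386478, plus strand). Capitals mark the fixed letters of any of these motifs, here as they read on the gene's strand.
Hspa5: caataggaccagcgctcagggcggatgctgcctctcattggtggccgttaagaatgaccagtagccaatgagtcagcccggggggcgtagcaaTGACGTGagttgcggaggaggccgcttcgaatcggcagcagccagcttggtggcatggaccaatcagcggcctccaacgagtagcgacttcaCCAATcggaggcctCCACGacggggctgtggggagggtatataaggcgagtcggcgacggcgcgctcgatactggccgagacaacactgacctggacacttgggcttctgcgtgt
Ero1b: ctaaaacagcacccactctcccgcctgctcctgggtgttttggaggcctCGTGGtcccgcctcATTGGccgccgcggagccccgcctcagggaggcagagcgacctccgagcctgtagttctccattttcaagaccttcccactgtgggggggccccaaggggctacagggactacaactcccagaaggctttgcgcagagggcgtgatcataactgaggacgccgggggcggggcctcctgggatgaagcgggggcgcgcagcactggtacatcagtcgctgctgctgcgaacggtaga
Dnajb11: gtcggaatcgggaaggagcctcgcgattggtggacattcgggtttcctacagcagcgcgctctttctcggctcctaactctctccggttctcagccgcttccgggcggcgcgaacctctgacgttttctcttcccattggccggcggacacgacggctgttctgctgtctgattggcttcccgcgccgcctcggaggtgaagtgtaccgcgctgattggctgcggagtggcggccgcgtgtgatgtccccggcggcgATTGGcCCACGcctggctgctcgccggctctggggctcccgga
Herpud1: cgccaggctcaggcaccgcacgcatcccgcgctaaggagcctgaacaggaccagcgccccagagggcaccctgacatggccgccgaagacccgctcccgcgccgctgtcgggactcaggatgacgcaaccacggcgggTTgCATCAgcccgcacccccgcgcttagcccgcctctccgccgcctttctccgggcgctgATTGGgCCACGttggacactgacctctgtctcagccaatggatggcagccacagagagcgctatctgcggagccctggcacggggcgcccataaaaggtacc
Chac1: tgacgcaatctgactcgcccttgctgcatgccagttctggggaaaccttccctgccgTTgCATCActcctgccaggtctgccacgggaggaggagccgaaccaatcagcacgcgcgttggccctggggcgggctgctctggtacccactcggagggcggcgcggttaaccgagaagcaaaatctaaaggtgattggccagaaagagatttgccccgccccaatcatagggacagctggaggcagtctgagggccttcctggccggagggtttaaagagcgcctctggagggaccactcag
Asns: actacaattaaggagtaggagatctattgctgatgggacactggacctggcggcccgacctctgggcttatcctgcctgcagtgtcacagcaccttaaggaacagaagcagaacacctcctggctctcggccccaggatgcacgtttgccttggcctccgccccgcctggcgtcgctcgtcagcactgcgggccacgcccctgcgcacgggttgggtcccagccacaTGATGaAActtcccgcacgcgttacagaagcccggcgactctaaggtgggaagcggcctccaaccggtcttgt

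The arrays were close to one another, with correlations of log2 signals of 0.924 to 0.940 in pairs of 1 group and 0.927 to 0.938 in pairs of different groups. The leading principal component held 35.7% of the variance and set control pool 3 apart, with a score of 39.1 beside scores of -18.7 to 12.9 for the other 5 pools. Insig1 had signals of 1253, 1442 and 1750.4 in deleted pools and 2300.1, 3325 and 2959.5 in control pools, so its groups did not overlap, and its log2 fold change of -0.95 had an adjusted p of 0.068 (limma). The sources used here do not say whether its probe set lies in the deleted part. Sftpc, the defining type II cell gene, had signals of 80089.5 to 118953 in deleted pools and 97603 to 143129 in control pools. Markers of other cells were measured too, and in isolates of mixed cells fewer cells of a type and less RNA per cell cannot be told apart.

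None of the 33 members passed limma's test of deleted against control pools at an adjusted p under 0.05, a threshold that 0.649% of all genes passed. At an unadjusted p under 0.05 there were 5 members (15.2%), where 12.1% of all genes passed, so the members' share was near the background. These were Hyou1, Ero1b and Dnajb11, higher in deleted pools (6.05% of all genes were higher by that rule), and Psat1 and Chac1, lower in deleted pools (6.02% of all genes). On the brightest probe sets the 95% intervals of all 33 log2 fold changes lay inside a 2-fold change in either direction. Those of 25 lay inside a 1.5-fold change. The other 8, whose intervals reached past 1.5-fold, were Hyou1, Sdf2l1, Pdia4, Ero1b, Ern1, Ddit3, Chac1 and Psat1. These bounds do not cover dimmer probe sets, of which 1 of Psat1 gave -0.78 ± 0.36 (SE) and 1 of Ddit3 gave -0.74 ± 0.41. The interval for Hspa5, which encodes BiP, ran from -0.18 to 0.42 on the log2 scale, and that for Ddit3, which encodes CHOP, ran from -0.01 to 0.69.

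**Figure D1:**
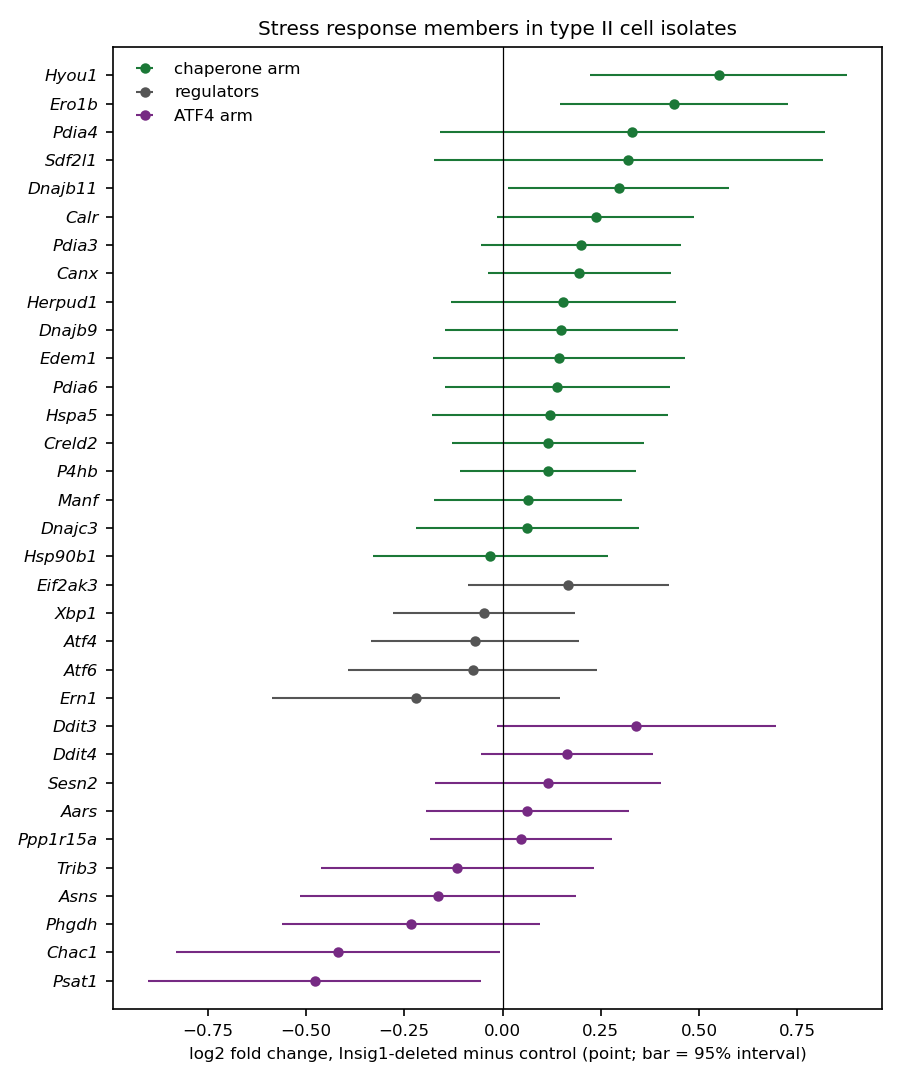
Log2 fold change of each of the 33 members, Insig1-deleted minus control (x axis), with genes down the page by arm and bars for the 95% interval from limma. Of the 18 chaperone arm genes 17 lie right of 0, with Hyou1 farthest at 0.55, while the ATF4 arm runs from 0.34 (Ddit3) to -0.48 (Psat1).

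The direction of the values differed by arm, which is given as a description. In the chaperone arm 17 of 18 members had log2 fold changes above 0 where 49.1% of all genes did, with a median of 0.15 and a range from -0.03 to 0.55, beside a median of 0.00 over all genes. That arm's median was 0.24 without control pool 2 and lay between 0.15 and 0.17 without control pool 1 or 3. The ATF4 arm held 5 members above 0 and 5 below, with a median of -0.03 and a range from -0.48 to 0.34. Its median was -0.07 without control pool 2 and 0.04 without control pool 3. With the mean over probe sets it was lower than either. Among the 5 sensors and transcription factors 1 lay above 0 (median -0.07). The groups of pools did not overlap for 11 of 33 members (33.3%), where this held for 17.1% of all genes. For 9 of the 11 every deleted pool lay above every control pool (9.2% of all genes), and for Chac1 and Psat1 every deleted pool lay below (7.9% of all genes). All members were measured in the same 6 pools, and their fold changes are not independent.

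**Figure D2:**
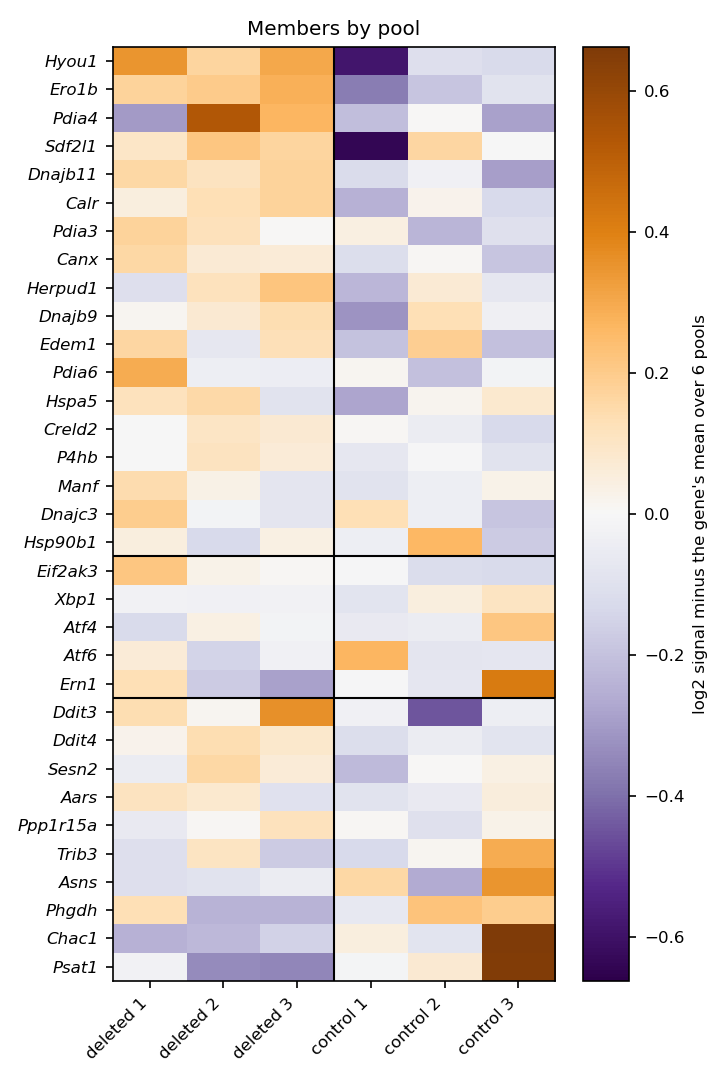
Log2 signal of each member in each of the 6 pools, minus that gene's mean over the pools (colour), with deleted pools left of the vertical line and control pools right of it; horizontal lines part the chaperone arm, the regulators and the ATF4 arm. Chaperone arm genes are mostly orange in deleted pools and mostly pale or purple in control pools 1 and 3, and Chac1 and Psat1 are darkest orange in control pool 3.

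Among the ER chaperones the widest gap was that of Hyou1, an Hsp70-like protein that acts as nucleotide exchange factor for BiP. Its signals were 11163, 9852 and 10788 in deleted pools and 5822, 8117 and 8013 in control pools. The groups did not overlap, and control pool 1 was the lowest (1.46-fold higher in deleted pools, log2 0.55 ± 0.15 (SE), adjusted p = 0.19). The Hyou1 fold change was 0.39 without control pool 1. It was 0.65 with array weights, the only setting under which it passed (adjusted p = 0.0395, limma), and a dimmer Hyou1 probe set gave 0.00, so that the mean over its probe sets gave 0.28. The brighter one is an s_at probe set, a type that can match several transcripts.

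Hspa5, whose product BiP is the ER Hsp70 that binds and holds the sensors inactive, had signals of 73703, 75521 and 63751 in deleted pools and 55960.2, 68829 and 71827 in control pools. These groups overlapped (log2 0.12 ± 0.13, adjusted p = 0.78), and without control pool 1 the difference was 0.01. Its other probe sets gave 0.12 and -0.13. Hsp90b1, the ER Hsp90 known as GRP94, was the 1 chaperone arm member with a fold change below 0, at -0.03, which was 0.05 after a shift to common array medians.

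Dnajb11, a BiP co-chaperone of the J-domain family, had signals of 2793, 2709 and 2827 in deleted pools against 2302, 2461 and 2044.5 in control pools. Every deleted pool lay above every control pool (log2 0.29 ± 0.12, adjusted p = 0.40). For calreticulin (Calr), a lectin chaperone of glycoproteins, signals were 41310.1, 43642 and 45011.5 in deleted pools and 33647, 40480.5 and 36436 in control pools. The groups did not overlap (log2 0.24 ± 0.11, adjusted p = 0.43), and the 2 dimmer Calr probe sets gave 0.33 and 0.29. Its membrane-bound relative calnexin (Canx) had 21581, 20262 and 20172 in deleted pools against 17882, 19452 and 16918 in control pools, again without overlap (log2 0.19 ± 0.10), and its other probe sets gave 0.33 and 0.26. Calr and Canx thus had the same sign on each of their probe sets past the filter.

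The remaining chaperones were the J-domain genes Dnajb9 (log2 0.15) and Dnajc3 (0.06), the second of which also inhibits PERK, and Sdf2l1 (0.32), a partner of BiP complexes. Their groups overlapped. The Dnajb9 value was 0.03 without control pool 1. The Sdf2l1 value was 0.08 without control pool 1, which had a signal of 682 where the other 5 pools lay between 1062 and 1236. The Dnajc3 value was -0.02 without deleted pool 1 or control pool 3 and -0.03 with array weights or with the mean over its probe sets.

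Disulfide bond enzymes all had fold changes above 0. Ero1b, the oxidase that recharges the isomerases, led them with signals of 2659, 2706 and 2873 in deleted pools against 1823, 2066 and 2212.5 in control pools. The groups did not overlap (1.35-fold, log2 0.44 ± 0.13, adjusted p = 0.23), and dimmer Ero1b probe sets gave 0.48 and -0.05. For the isomerase gene P4hb, signals were 40673, 43941 and 42601 in deleted pools and 38761, 40429 and 38179 in control pools, without overlap (log2 0.12 ± 0.10). Pdia3 (log2 0.20), Pdia4 (0.33) and Pdia6 (0.14), all isomerases of the same family, had overlapping groups. Pdia3 had 15725.5, 15195 and 13967 in deleted pools against 14358, 11830.5 and 12991 in control pools, and its value was 0.13 without control pool 2. That of Pdia6 was 0.03 without deleted pool 1. Pdia4 varied most among deleted pools, with 1130.1, 2011.5 and 1672 against 1202, 1396 and 1141 in control pools, and its value was 0.56 without deleted pool 1 and 0.15 without deleted pool 2.

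The luminal stress proteins Creld2 (log2 0.12) and Manf (0.06), which ER stress is known to induce and, for MANF, to release, had overlapping groups. Creld2 had 4128.5, 4428.5 and 4348.5 in deleted pools and 4155, 3991 and 3766 in control pools. Manf had 11037, 10266 and 9480.2 in deleted pools and 9417, 9742 and 10231 in control pools, and its value was 0.01 without deleted pool 1. Of the genes of ER-associated degradation, Herpud1, a scaffold of the retrotranslocation complex, had 24670.5, 28717 and 30885 in deleted pools and 22576, 27873.5 and 25225 in control pools, which overlapped (log2 0.15 ± 0.13, and 0.08 without control pool 1). Edem1, a lectin that extracts misfolded glycoproteins, gave different answers on its 2 probe sets. The brighter had 4467.5, 3798 and 4352 in deleted pools and 3482.5, 4545 and 3462 in control pools, which overlapped (log2 0.14 ± 0.14, from 0.08 without control pool 3 to 0.27 without control pool 2). The other had signals of 4296, 4389 and 4937 in deleted pools against 2953, 3499 and 3032 in control pools, with no overlap (log2 0.52 ± 0.13, adjusted p = 0.22 over all probe sets).

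**Figure D3:**
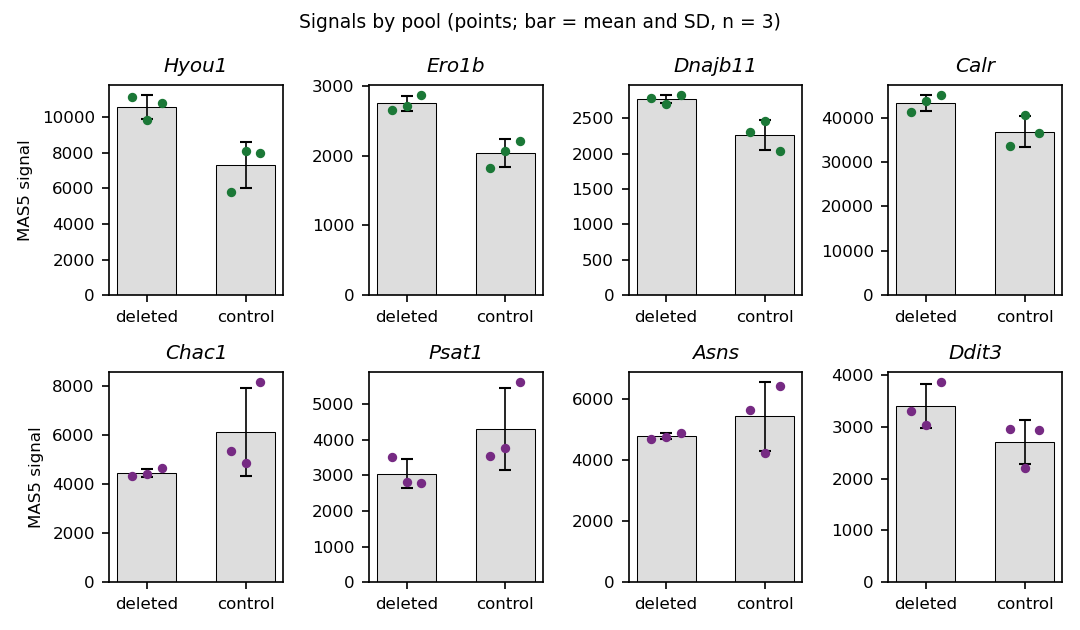
Probe set signals (y axes from 0, each its own scale) of 8 members in deleted pools, left, and control pools, right; points are pools, bars the mean and whiskers the SD (n = 3). Deleted pools lie above every control pool for Hyou1, Ero1b, Dnajb11, Calr and Ddit3, and below for Chac1 and Psat1, where control pool 3 is the highest at 8161 and 5621.

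The sensors and transcription factors had values between -0.22 and 0.17. Xbp1, whose spliced form drives chaperone genes, had 34587, 34522 and 34652 in deleted pools and 33115, 36377 and 37902 in control pools (log2 -0.05 ± 0.10, adjusted p = 0.90). Deleted pools lay within the range of control pools, and all 4 Xbp1 probe sets past the filter had values between -0.12 and -0.04. Atf4 had 38739, 43489 and 41798 in deleted pools against 40578, 40959 and 49038 in control pools (log2 -0.07 ± 0.12, adjusted p = 0.87). Here too the groups overlapped, with control pool 3 highest. The values of Xbp1, Atf4 and Atf6 turned to 0.03, 0.01 and 0.00 with common array medians, which raise the fold change of every gene alike. That turn therefore says nothing particular to these genes. With single pools left out, Atf4 ran from -0.12 to 0.02, Atf6 from -0.13 to 0.04 and Xbp1 from -0.10 to -0.005.

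Of the sensors, Ern1 had signals of 8416, 6799.5 and 6289 in deleted pools and 7628, 7283 and 10244 in control pools (log2 -0.22 ± 0.16), with overlap, and its value was -0.07 without control pool 3. Atf6 stood at -0.08, with 2844, 2453 and 2671 in deleted pools against 3277.5, 2575 and 2585 in control pools. A dimmer Atf6 probe set gave -0.23 without overlap (adjusted p = 0.62 over all probe sets, limma). Its signals were 1389, 1638 and 1452 in deleted pools and 1820, 1743.5 and 1696 in control pools. On the brightest probe sets Eif2ak3 was the only sensor whose groups were apart. It had 5180.4, 4556 and 4481 in deleted pools and 4444, 4112 and 4085.5 in control pools (log2 0.17 ± 0.11, adjusted p = 0.61, and 0.10 without deleted pool 1).

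In the ATF4 arm, CHOP (Ddit3), a transcription factor linked to cell death under prolonged ER stress, had signals of 3306, 3030.5 and 3862 in deleted pools and 2951, 2206 and 2929 in control pools. The groups did not overlap (log2 0.34 ± 0.16, adjusted p = 0.42), and the value was 0.20 without control pool 2. A dim second Ddit3 probe set gave -0.74 with overlapping groups, and averaging the probe sets gave -0.20, so the direction for Ddit3 depended on the probe set. Ddit4, also called REDD1, an inhibitor of mTORC1, had 14080, 15250.5 and 14735 in deleted pools against 12836, 13398 and 13086 in control pools, without overlap (log2 0.16 ± 0.10).

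Sesn2, another stress-induced brake on mTORC1, stood at 0.12. Ppp1r15a, or GADD34, which returns eIF2 to its unphosphorylated form, stood at 0.05. The pseudokinase gene Trib3 had a value of -0.11, and the alanyl-tRNA synthetase gene Aars one of 0.06. On the brightest probe sets groups overlapped for these 4, and their values lay between -0.21 and 0.17 whichever pool was left out. Dimmer probe sets gave -0.37 for Trib3, -0.17 for Sesn2 and 0.21 for Aars, so the sign for Sesn2 depended on the probe set.

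Psat1 and Phgdh encode enzymes of serine synthesis, Asns makes asparagine, and CHAC1 degrades glutathione; all 4 had values below 0. Psat1 had signals of 3507, 2815 and 2794 in deleted pools and 3528, 3759 and 5621 in control pools. The groups were apart by a small margin (log2 -0.48 ± 0.19, adjusted p = 0.36). They overlapped on a second Psat1 probe set (-0.78 ± 0.36), with 2451, 1868 and 2143 in deleted pools against 1915, 4002 and 6543 in control pools. For Chac1 the signals were 4339, 4404 and 4634 in deleted pools and 5331.5, 4866 and 8161 in control pools, also apart (log2 -0.42 ± 0.18, adjusted p = 0.40). Control pool 3 carried much of both: without it Psat1 stood at -0.27 and Chac1 at -0.19, each on its brightest probe set.

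Asns had 4706, 4751 and 4891 in deleted pools against 5653.5, 4222 and 6442 in control pools (log2 -0.16 ± 0.16), with overlap, and -0.03 without control pool 3. A dimmer x_at probe set of Asns gave -0.52 ± 0.17 (SE; adjusted p = 0.34 over all probe sets), with 3548, 2908.5 and 3192 in deleted pools against 3994, 4182 and 5833 in control pools, which did not overlap. Phgdh stood at -0.23 with overlapping groups, and its other probe sets gave values from -0.31 to -0.06. The brightest Phgdh probe set is of the x_at type, which can also match similar sequences, and 2 more probe sets that name Phgdh together with a second gene were not used.

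The arms were set against each other pool by pool. The mean log2 signal of the 18 chaperone arm genes was 13.39, 13.40 and 13.39 in deleted pools and 13.11, 13.29 and 13.18 in control pools, so that every deleted pool lay above every control pool. That of the 10 ATF4 arm genes was 12.24, 12.22 and 12.21 in deleted pools against 12.21, 12.19 and 12.47 in control pools, with overlap. Chaperone minus ATF4 arm was 1.15, 1.18 and 1.18 in deleted pools and 0.90, 1.10 and 0.71 in control pools, again without overlap. Only the gap between groups can be read from these differences, since probe sets of different genes have no common scale. That gap was 0.27, and it was 0.17 without control pool 3 and 0.37 without control pool 2.

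**Figure D4:**
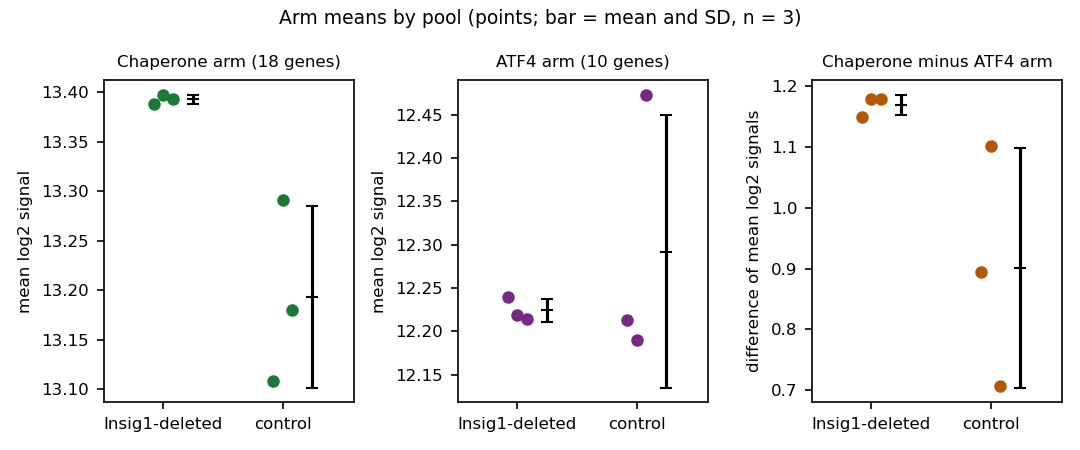
Mean log2 signal of the chaperone arm and of the ATF4 arm, and their difference, in deleted pools (left in each panel) and control pools (right); points are pools and whiskers the mean and SD (n = 3), and y axes do not start at 0. Deleted pools lie close together in every panel, while control pool 3 is the highest for the ATF4 arm at 12.47 and the lowest for the difference at 0.71.

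The spread was unequal. Chaperone arm means had an SD of 0.004 among deleted pools and 0.09 among control pools, and ATF4 arm means an SD of 0.01 among deleted pools and 0.16 among control pools. Control pool 1 was the lowest of the 6 pools for 8 of 18 chaperone arm genes (44.4%, against 15.5% of all genes) and control pool 3 for 7 (38.9%, against 23.4%). Control pool 3 was the highest for 4 of 10 ATF4 arm genes (40%, against 26.9% of all genes). Chaperone arm genes with the ER stress element had a median log2 fold change of 0.13 (8 genes). Those whose promoters lacked it, among them Dnajb11 and Herpud1 with its second form, had a median of 0.18 (8 genes). Without control pool 1 the medians were 0.16 with the element and 0.10 without it, so their order was reversed. In the ATF4 arm the 4 genes with the composite motif had a median of -0.14 and the 6 without it one of 0.08, which were -0.01 and 0.12 without control pool 3.

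Wider lists of the same pathways had no gene past the threshold, which 0.649% of all genes passed. Few passed at an unadjusted p under 0.05, where 12.1% of all genes did, and 49.1% of all genes lay above 0. Of 25 other ER folding and translocation genes 19 lay above 0 (median 0.07, and 0.02 without control pool 3) and 1 was past the unadjusted level of 0.05, Uggt1 (log2 0.36), the folding sensor that sends glycoproteins back to calnexin and calreticulin. Ssr1, of the translocon-associated complex, stood at 0.22 in that list, the oxidase gene Ero1a at 0.18 and Hspa13 at 0.18. Of 16 other degradation genes 11 lay above 0 (median 0.04, from 0.01 to 0.09 with single pools left out), with Derl2, a retrotranslocation channel component, higher (0.28) and Dnajb2, a cytosolic co-chaperone, lower (-0.36) at that level.

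Among 29 other genes of the amino acid response and tRNA charging, 21 lay below 0 (median -0.12), and without control pool 3 it was 20 (median -0.07). Nupr1, a stress-induced chromatin protein, was lower at an unadjusted p under 0.05, with 43479, 55719 and 60416 in deleted pools and 65213, 64283 and 72768 in control pools (log2 -0.35, adjusted p = 0.37). Its groups did not overlap, and its value was -0.21 without deleted pool 1. Atf5, another stress-induced bZIP factor, stood at -0.30, and the tRNA synthetase genes Cars at -0.34 and Wars at -0.23. The 11 genes of eIF2 kinases, eIF2, eIF2B and phosphatase had a median of 0.04 and the 11 other regulators and death genes one of 0.04 (-0.02 without control pool 3), with 0 at an unadjusted p under 0.05 in either. Eif2ak2, the kinase PKR, had the smallest p of the first list (-0.32) and Creb3, an ER-tethered factor, that of the second (-0.23).

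**Figure D5:**
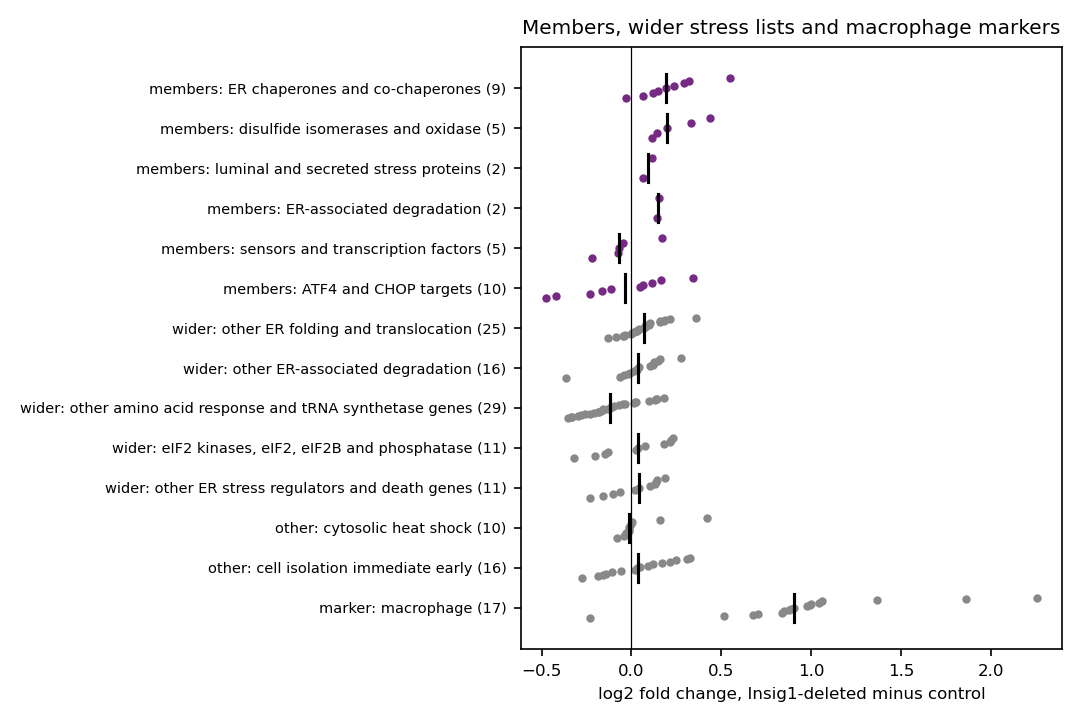
Log2 fold change, Insig1-deleted minus control (x axis), of every tested gene in the members' role groups (purple), of the wider and other stress lists and of macrophage markers (grey), with a black bar at each list's median and the number of genes in brackets. Stress lists have medians between -0.12 and 0.20, while macrophage markers have a median of 0.90.

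Other stress programmes and cell markers stood beside these values. For their counts, 0.649% of all genes passed the threshold, 12.1% passed at an unadjusted p under 0.05 and 49.1% lay above 0. The 10 cytosolic heat shock genes had a median of -0.01 (0.13 without control pool 3), with Hspa1a at 0.42 (1 gene at an unadjusted p under 0.05), and the 16 immediate early genes of cell isolation a median of 0.04 (0.15 without control pool 3), with 2 higher and 1 lower. Of 17 macrophage markers 16 lay higher in deleted pools and 7 passed the threshold, while Lgals3 stood at -0.23. Their median was 0.90, with summed signals of 185477 to 207578 in deleted pools against 111047 to 147571 in control pools. Marco, the scavenger receptor, averaged 3654 ± 391 in deleted pools and 812 ± 371 in control pools (SD, 3 pools each). Airway markers all lay below 0, with 2 of 16 past the threshold, a median of -0.38 (-0.22 without control pool 3, and -0.16 without deleted pool 1) and summed signals of 551722 to 757640 in deleted pools against 696092 to 933571 in control pools.

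Lymphocyte and plasma cell markers had 0 of 14 past the threshold by limma and 1 higher at an unadjusted p under 0.05, a median of 0.18 (0.09 without control pool 1 or deleted pool 1) and summed signals of 81210 to 91389 in deleted pools against 62289 to 93080.4 in control pools. Plasma cells are rich in ER chaperones, and their immunoglobulin joining chain gene Jchain had 23738, 24472.5 and 26722 in deleted pools against 12196, 31795 and 27708.5 in control pools. Control pool 1, lowest for many chaperones, was also lowest for Jchain and for the summed macrophage and lymphocyte markers. Control pool 3, lowest for 7 of 18 chaperone arm genes, lay above every deleted pool for Jchain. Leaving out control pool 1 gave the lowest fold change for Jchain and Mzb1, but not for Sdc1, Irf4 and Prdm1 of the same list. Type II cell markers (14 genes) had a median of 0.07, with 0 past the threshold by limma and 1 higher at an unadjusted p under 0.05, and endothelial and mesenchymal markers (12 genes) one of -0.01, which were -0.01 and 0.09 without control pool 3. Their summed signals were 897981 to 1044640 in deleted pools against 910421 to 1097810 in control pools for type II cells, and 55182 to 77725 in deleted pools against 61154 to 84215 in control pools for endothelial and mesenchymal cells. No tested marker of any list was at 0 in any pool. Detection calls were not used, so this does not show that each marker was detected. The part of these cell types and of control pools 1 and 3 in the members' values was not tested.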

How the data were processed

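Type II cell RNA was biotin-labelled and hybridised to Affymetrix arrays, per the labels' protocols. The authors deposited linear intensity values, 1 per probe set and array, computed with MAS5, per the submitters' processing notes, with no version given. As the values show, each array had a trimmed mean (2nd to 98th percentile) near 1500, and array medians ran from 426 to 479. MAS5 treats arrays one by one, so differences of shape between arrays remain.

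Values were floored at 1 and put on a log2 scale, with no further normalization. Probe sets below the 40th percentile of mean log2 signal (8.08) were left out. Gene names came from the platform annotation (34945 of 45101 probe sets named 1 gene). The test was limma 3.58.1 under R 4.3.3 (intensity trend, two-sided, Benjamini-Hochberg over 12952 genes, threshold 0.05). P-values measure the spread between pools; with 3 pools against 3 an exact permutation test cannot go below 0.1. Fold changes are deleted minus control. On simulated data from these 12952 genes the test recovered 12% of log2 changes of 0.5, 44% of 1 and 90% of 2. Changed genes were drawn from all of these, with genes independent and the same spread in both groups. The shares are therefore not rates for the members, which were brighter than most genes and whose arm means spread unequally. The number of arrays limits the precision.

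The members, arms and other lists were chosen with earlier results of these data known, so counts over them are descriptions. Full values are given for up to 4 members per role group with the smallest p, for those at an unadjusted p under 0.05 and for Hspa5, Xbp1, Atf4, Ddit3 and Asns; further probe sets and members are named with their values known. From wider lists the genes with the smallest p are named. Protein sequences were not used here. Alternatives were 2 normalizations, an added 16, no trend, array weights, 2 filters, probe set means, a pool-number block and each pool left out. Pool numbers were not taken to pair samples (correlations of deviations 0.07, 0.04 and 0.15).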

Additional observations from a re-analysis of the deposited data

How the results depend on the processing

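Over 15 alternatives the 33 members gave 495 fold changes, of which 477 kept their direction and their side of the threshold; the cause of the other 18 was not tested. The 1 that passed was Hyou1 with array weights (0.65). Common array medians turned Hsp90b1 (0.0467), Xbp1 (0.0312), Atf6 (0.0027) and Atf4 (0.0083). The mean over probe sets turned Hsp90b1 (0.0424), Dnajc3 (-0.0271), Ddit3 (-0.20) and Sesn2 (-0.029), and array weights Dnajc3 (-0.0325). Leaving out single pools gave Dnajc3 -0.0187 to 0.1444, Hsp90b1 -0.1261 to 0.0898, Ppp1r15a -0.0007 to 0.0859, Atf6 -0.1348 to 0.0392, Atf4 -0.1181 to 0.0185 and Trib3 -0.2094 to 0.0022.

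Members at an unadjusted p under 0.05 numbered 2 with no intensity trend, 8 with the mean over probe sets, and 2 to 8 with single pools left out. Members past the threshold numbered 1 with array weights and 0 to 0 with single pools left out. The members' median was 0.20 with common array medians, a setting that raises the fold change of every gene by the same amount. Log2 array medians were 8.74, 8.75 and 8.81 in deleted pools and 8.74, 8.90 and 8.89 in control pools. The chaperone arm's median was 0.23 with common array medians and 0.15 to 0.24 with pools left out, and the ATF4 arm's was -0.21 with the mean over probe sets and -0.07 to 0.04 with pools left out. The chaperone minus ATF4 gap was 0.17 to 0.37 with pools left out. Over all genes 84 passed (81 higher, 3 lower), against 29 (29 and 0) with no trend, 259 (186 and 73) with array weights, 132 (111 and 21) with the pool number as a replicate block, and 15 to 477 (15 to 184 higher, 0 to 293 lower) with pools left out, lowest without deleted pool 2 and highest without control pool 2. With that block 0 members passed, and deleted pool 2 did not correlate best with its own number. Dim probe sets give noisy ratios, and signal over background was not used here. Medians of the wider and marker lists and of motif groups with pools left out were added after seeing the data.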
